A study of Mus musculus with 36 samples.

Results

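Mitochondrial ribosomal protein genes were followed in mouse embryos over 2 stages of cleavage, with 17 RNA-seq libraries of 2-cell embryos (2C in the labels) and 19 of 8-cell embryos (8C). The members are all gene symbols of the table that begin with Mrpl or Mrps followed by a digit, with symbols marked as pseudogenes left out. They number 77 of the 23845 symbols in the table, of which 48 are Mrpl genes, named for the large subunit, and 29 are Mrps genes, named for the small subunit. The choice rests on names and uses no measured value. Every member passed the filter on low counts in each of the fits used below.

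For each library 4 to 5 embryos were pooled, and SMART-seq v4 was used, a kit that amplifies full-length cDNA from little RNA. At the 2-cell stage 4 libraries are labelled NI, 7 Ctrl and 6 KRAB, and at the 8-cell stage 6 are labelled NI, 6 Ctrl and 7 VP64. A repressor domain is known as KRAB and an activator domain as VP64, and the title of the series concerns the LINE-1 retrotransposon after fertilisation. The labels spell out neither NI nor what the Ctrl embryos received, and they give no strain or genotype. Nothing in the labels says whether the pools came from separate matings, and p-values therefore rest on library-to-library spread, which may be technical.

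Total estimated counts ranged from 1043740 to 13583527 per library. The summed level of 2-cell markers lay between 280.6 and 2178 CPM (counts scaled to the library total) in the 2-cell libraries and between 9.03 and 92.7 CPM in the 8-cell libraries, so the stage labels and the markers matched. Libraries of one group were far from identical. The median rank correlation of a library with the others of its group was lowest in Ctrl replicate 6 at the 2-cell stage, at 0.536, and at the 8-cell stage it was lowest in Ctrl replicate 6, at 0.767. Among the NI libraries of the 8-cell stage replicate 6 was the least typical, at 0.848, and among the VP64 libraries replicate 7, at 0.857. The scaling factors of Ctrl replicate 6 of the 8-cell stage and VP64 replicate 7, 0.503 and 0.624, were the lowest of all 36. That of NI replicate 6 of the 8-cell stage, 0.73, came next. Such low factors raise every CPM in these libraries relative to the unscaled value. Counts with and without the least typical library of each group are given below.

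Mitochondria translate a small set of respiratory chain subunits from their own genome on ribosomes of their own. All proteins of these ribosomes are encoded in the nucleus, made in the cytosol and imported. The large subunit joins amino acids and holds the exit tunnel, and the small subunit binds the messenger RNA and decodes it. In the mouse embryo the mitochondria come from the egg, and their DNA is known not to be replicated appreciably during cleavage.

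The members do not sit together in the genome. All 77 matched the GENCODE vM21 annotation by symbol, and they lie on 17 chromosomes. Exons of 32 members overlap those of another gene, 27 of them by more than 100 bases. In 19 members more than 20% of the 31-base stretches of their transcripts also occur in another gene, so the way reads were divided between such genes bears on their values. The share was 100% for Mrpl53, 67.6% for Mrpl23 against its pseudogene Mrpl23-ps1, 58.0% for Mrps25 and 55.6% for both Mrps18b and Mrps34. Except for Mrpl23, the other gene here is one whose exons overlap those of the member.

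At the sequence level many of these genes share promoter motifs of factors known to control nuclear genes of the mitochondrion. RefSeq start-site windows of the GRCm38.p6 build, 250 bases before and 50 after the start, were at hand for 68 members and for 27025 genes in all. The core site of ETS factors such as GABP, CCGGAAG on either strand, was in the windows of 36.8% of members and 9.93% of all genes. The palindromic GC-rich motif of NRF1 was in 19.1% of members and 5.19% of all genes. The YY1 core, AAGATGG, was in 19.1% of members and 7.28% of all genes. At least 1 of these 3 motifs was in 61.8% of members and in 5414 of the 27025 genes, with a window that holds several of them counted once. By contrast the TATA motif TATAAA was in 7.35% of members and 15.7% of all genes, and CCAAT was in 39.7% and 41.1%. The members' windows also hold more G and C, 58.8% on average against 53.6% in all windows. The large-subunit and small-subunit genes differed little in the share with at least 1 of the 3 motifs, 64.3% of 42 and 57.7% of 26 windows.

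The 130 bases before the start are shown for 3 members with such a motif and 2 without one in this stretch, because these genes carry much of what follows. Mrpl12 (GRCm38.p6, chr11:120484507-120484636, plus strand) encodes the stalk protein that recruits translation factors, Mrpl22 (chr11:58171534-58171663, plus strand) a protein that lines the exit tunnel, and Mrps18a (chr17:46110874-46111003, plus strand), Mrps18b (chr17:35916441-35916570, minus strand) and Mrps18c (chr5:100798629-100798758, plus strand) are 3 relatives of the single bacterial protein S18. Capitals mark an NRF1 site in Mrpl12, read on the opposite strand, and an ETS core in Mrpl22 and Mrps18a. The sequences run 5′ to 3′ along the strand of the gene.
Mrpl12: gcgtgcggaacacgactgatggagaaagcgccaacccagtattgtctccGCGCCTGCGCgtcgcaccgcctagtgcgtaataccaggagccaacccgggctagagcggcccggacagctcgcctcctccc
Mrpl22: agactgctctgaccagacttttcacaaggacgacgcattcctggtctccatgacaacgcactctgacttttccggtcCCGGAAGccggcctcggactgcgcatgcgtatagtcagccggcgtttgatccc
Mrps18a: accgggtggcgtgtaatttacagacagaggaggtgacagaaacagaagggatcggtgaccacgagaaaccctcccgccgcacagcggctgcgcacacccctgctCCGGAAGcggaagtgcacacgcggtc
Mrps18b: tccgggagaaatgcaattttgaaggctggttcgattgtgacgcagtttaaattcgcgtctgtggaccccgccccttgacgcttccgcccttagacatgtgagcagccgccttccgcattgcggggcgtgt
Mrps18c: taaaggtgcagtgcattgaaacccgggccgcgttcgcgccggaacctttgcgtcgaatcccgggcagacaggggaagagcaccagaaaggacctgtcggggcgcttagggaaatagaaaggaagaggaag
The NRF1 site of Mrpl12 begins 81 bases before the start, and the ETS cores of Mrpl22 and Mrps18a begin 53 and 26 bases before it. These matches are letters in a window and were not tested for binding.

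Together the 77 genes took up a small part of each transcriptome, and a larger one at the 8-cell stage. In the 4 NI libraries of the 2-cell stage they held 0.638%, 0.356%, 0.354% and 0.290% of all counts. In the 6 NI libraries of the 8-cell stage the share ran from 0.559% to 1.46% with a median of 0.905%. NI replicate 1 at the 2-cell stage lay above the lowest 8-cell library, and the other 3 lay below all 6. In the 7 Ctrl libraries the share ran from 0.217% to 0.637% with a median of 0.271% at the 2-cell stage. In the 6 Ctrl libraries of the 8-cell stage it ran from 0.516% to 1.41% with a median of 0.989%, and again only 1 library of the earlier stage, replicate 6, reached into the later range. KRAB libraries held 0.229% to 0.800% and VP64 libraries 0.813% to 1.47%, overlapping the other groups of their stage. These pools are bulk samples, so more RNA of these genes per embryo and less of other RNA cannot be told apart.

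**Figure D1:**
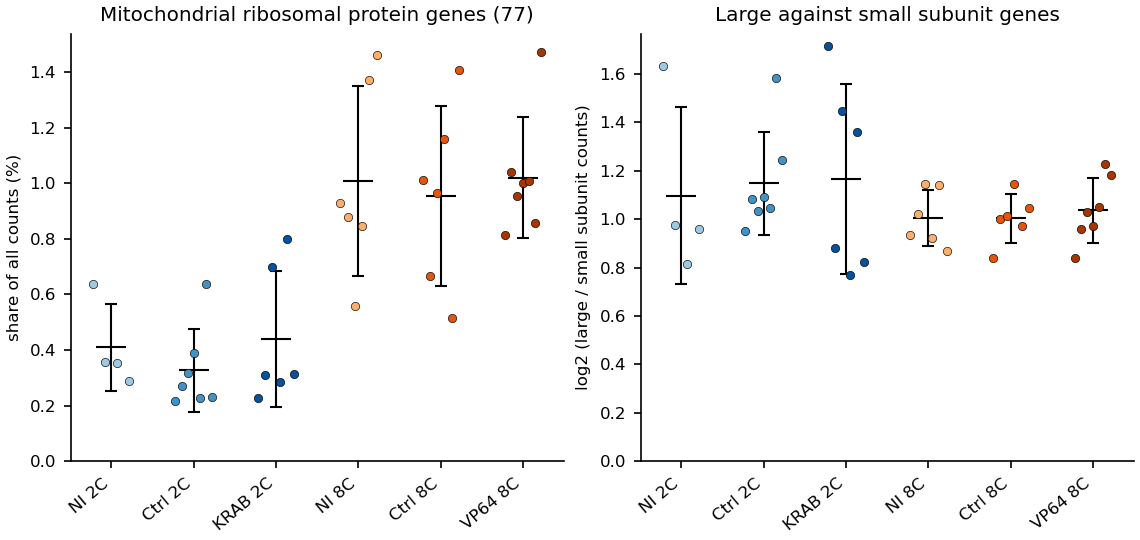
Left, the share of all counts held by the 77 mitochondrial ribosomal protein genes in each of 36 libraries, in percent. Right, the log2 ratio of the summed counts of the 48 large-subunit genes to those of the 29 small-subunit genes. Points are libraries in replicate order, and bars are the mean and SD of a group. The share ranged from 0.217% to 0.800% at the 2-cell stage and from 0.516% to 1.47% at the 8-cell stage, and the ratio overlapped between all groups.

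The members with the highest mean levels differed between the stages. Levels of different genes were compared per kilobase of the longest annotated transcript. In NI embryos of the 2-cell stage the highest mean level belonged to Mrpl34, at 254.7 ± 274.3 CPM per kb (SD, n = 4), followed by Mrps21 (128.3), Mrpl9 (125.4), Mrps33 (124.5) and Mrpl40 (122.7). With SDs of 49.8 to 274.3 over these 5 genes, their order is not resolved. Mrpl34 leaned on NI replicate 1, which held 650 of its counts before scaling, against 247, 161 and 263 in replicates 2 to 4. The 3 lowest were Mrps35 (1.79), Mrps5 (1.67) and Mrpl11 (1.17). In NI embryos of the 8-cell stage the highest were Mrpl22, at 837.7 ± 338.4 CPM per kb (SD, n = 6), Mrps18b (666.1 ± 319.4), Mrpl20 (444.2 ± 228.4), Mrpl42 (313.1) and Mrps24 (274.8). The 3 lowest were Mrps16 (11.9), Mrps5 (10.4) and Mrps25 (9.06). None of the 5 leading genes of the 2-cell stage led at the 8-cell stage. The highest mean level was 218 times the lowest at the 2-cell stage and 92.5 times at the 8-cell stage, although the ribosome holds these proteins in fixed numbers. These levels depend on the transcript chosen for the length. The longest transcripts of the genes named lowest have 2572 (Mrps16) to 6073 bases (Mrps25). Those of the genes named highest have 488 (Mrps21) to 1657 bases (Mrpl9). The part of this choice in the spread was not tested. Median levels per kb were 31.5 for large-subunit and 19.5 for small-subunit genes at the 2-cell stage and 88.0 and 72.3 at the 8-cell stage in NI embryos.

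NI and Ctrl embryos were each sampled at both stages, and the 2 stage comparisons share no library. In NI embryos 48 of the 77 members rose from the 2-cell to the 8-cell stage and 0 fell (edgeR's quasi-likelihood test, adjusted p under 0.05 over 13158 genes), or 62.3% of the members. Over all genes tested 18.5% rose in this comparison and 31.4% fell. The members' median log2 fold change was 1.90, against -0.47 for all genes tested, and 71 members had a positive value. Among them 35 rose more than 4-fold and 11 more than 8-fold, as did 13.2% and 6.05% of all genes tested. In 35 members every 8-cell library lay above every 2-cell library, which held for 12.8% of all genes tested. Without the least typical library of each group 45 members rose and 1, Mrps36, fell, where 20.8% of all genes rose and 29.6% fell. Over the exclusion of any single library the number called ranged from 40 to 52, and 1974 to 2519 of all genes rose.

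In Ctrl embryos 62 of the 77 members rose and 0 fell, or 80.5%, where 22.5% of all genes tested rose and 39% fell. Here the median log2 fold change was 2.04, against -0.51 for all genes. More than 4-fold rises were found in 39 members and more than 8-fold rises in 24, against 14% and 6.09% of all genes tested. Every 8-cell library lay above every 2-cell library in 23 members, against 7.11% of all genes tested. Without the least typical libraries 65 members and 25.2% of all genes rose. Without single libraries 54 to 66 members passed, and 2488 to 3158 of all genes rose. The members that rose in both comparisons number 42, which is 87.5% of those called in NI and 67.7% of those called in Ctrl. Another 20 passed in Ctrl alone, 6 in NI alone (Mrpl2, Mrpl3, Mrpl18, Mrpl24, Mrpl38 and Mrps27), and 9 in neither (Mrpl9, Mrpl10, Mrpl34, Mrpl41, Mrpl48, Mrps2, Mrps23, Mrps25 and Mrps36). The same overlap was not counted over all genes tested, so these shares do not set the members apart. Among the 6 called in NI alone, Mrpl3 missed the threshold without any one of NI replicates 1, 2 and 3 of the 2-cell stage (edgeR adjusted p = 0.0767, 0.0558 and 0.0552), and Mrpl38 missed it without any one of 7 libraries (0.053 to 0.129). A threshold passed in one comparison alone does not show a difference between them, and the test of that difference is given further on.

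**Figure D2:**
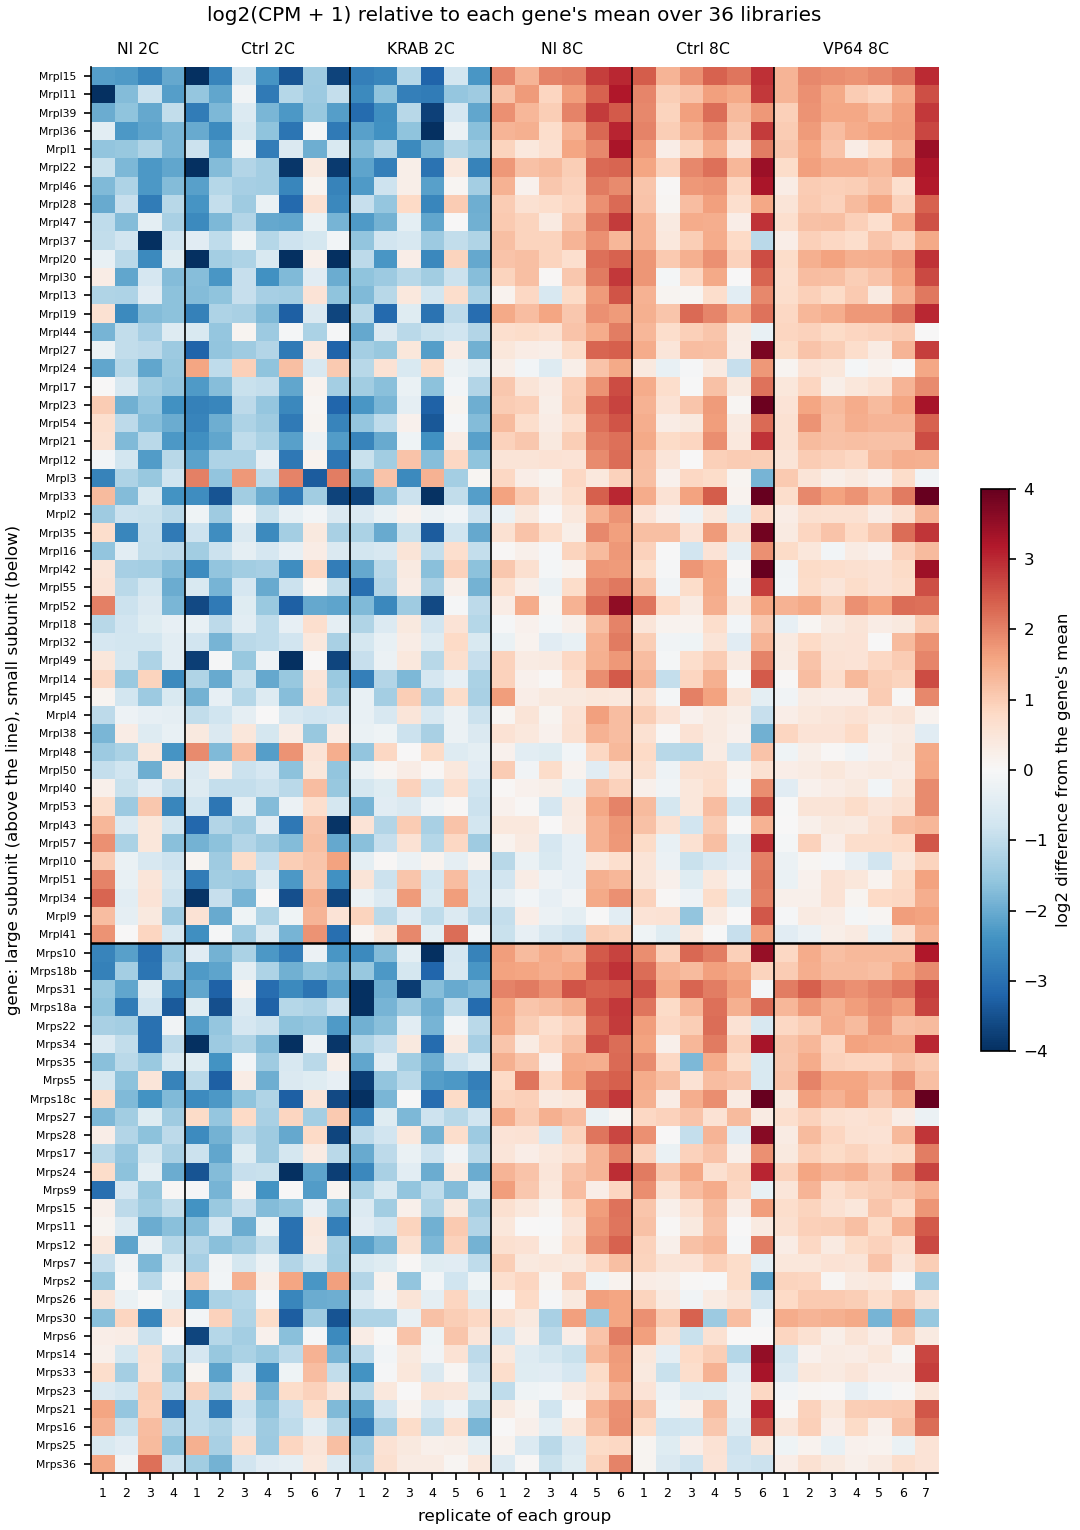
The 77 genes (rows) in 36 libraries (columns), as log2(CPM + 1) minus the mean of the gene over all libraries. Large-subunit genes stand above the line and small-subunit genes below it, each ordered by the log2 fold change between stages in NI embryos. Most rows are blue at the 2-cell stage and red at the 8-cell stage, and the bottom rows of each block are mixed. The mean log2(CPM + 1) over the members was highest in NI replicate 6 of the 8-cell stage (7.64). It was followed by VP64 replicate 7 (7.59) and Ctrl replicate 6 of that stage (7.35).

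Among the large-subunit genes 31 of 48 rose in NI and 38 of 48 in Ctrl, with median log2 fold changes of 1.97 and 2.07. Mrpl15, whose protein lies in the core of the large subunit, led in NI. Its level was 15.4, 14.9, 11.5 and 17.5 CPM in the 4 NI libraries of 2-cell embryos. In 8-cell embryos its level ran from 191.3 to 608.9 CPM with a median of 303.5. Each 8-cell library thus lay far above every 2-cell library. The log2 fold change was 4.63 ± 0.69 (SE), or 24.7-fold, with an adjusted p of 1.04e-06 in edgeR's quasi-likelihood test. In Ctrl embryos Mrpl15 ran from 3.42 to 48.0 CPM and then from 194.4 to 578.4 CPM, again with no overlap, and the log2 fold change was 4.48 ± 0.53 (edgeR adjusted p = 7.38e-09).

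Mrpl11, at the base of the stalk where translation factors dock, was barely detected at first. Its levels in the NI libraries of the 2-cell stage were 0, 3.84, 7.91 and 2.48 CPM. At the 8-cell stage they ran from 27.97 to 145.7 CPM with a median of 50.5, and the groups did not overlap. The log2 fold changes were 4.23 ± 0.71 in NI and 3.23 ± 0.53 in Ctrl (edgeR adjusted p = 8.15e-06 and 2.49e-06). Of the other 2 stalk genes, 1 passed in both comparisons and 1 in neither. Mrpl12 was at 121.2, 77.5, 26.6 and 59.4 CPM in the NI libraries of the 2-cell stage and ran from 186.1 to 612 CPM at the 8-cell stage, with log2 fold changes of 2.12 ± 0.62 in NI and 1.97 ± 0.51 in Ctrl (edgeR adjusted p = 0.00491 and 0.00102). Mrpl10, which anchors the Mrpl12 proteins on the ribosome, gave -0.10 ± 0.54 and -0.19 ± 0.47 and did not pass (edgeR adjusted p = 0.896 and 0.742). Its NI libraries held 116.3, 47.5, 35.95 and 31.4 CPM at the 2-cell stage and 25.7 to 91.9 CPM at the 8-cell stage, and the ranges overlapped. Exons of Mrpl10 and Mrpl12 overlap antisense genes by 240 and 200 bases.

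Mrpl39, a protein found in mitochondrial ribosomes and related to an aminoacyl-tRNA synthetase, was at 6.77, 9.12, 6.47 and 14.7 CPM in NI at the 2-cell stage and at 60.1 to 212 CPM at the 8-cell stage. Its log2 fold changes were close, 3.72 ± 0.61 in NI and 3.50 ± 0.48 in Ctrl (edgeR adjusted p = 5.03e-06 and 9.49e-08). Mrpl22 was at 97.2, 51.8, 35.95 and 42.4 CPM and then at 360.6 to 912.2 CPM in NI. Its log2 fold change was 3.41 ± 0.84 in NI and 3.58 ± 0.67 in Ctrl, where it was 4.35 without Ctrl replicate 6 of the 2-cell stage. In Mrpl22 43.2% of the 31-base stretches also occur in the gene Gm6997. The rises of Mrpl36 (3.50), Mrpl1 (3.49), Mrpl46 (3.14) and Mrpl28 (2.90) complete the 8 largest of the large subunit in NI, and Mrpl36 gave 4.15 without NI replicate 1 of the 2-cell stage. In Ctrl Mrpl23 (3.77), Mrpl52 (3.62), Mrpl19 (3.61), Mrpl42 (3.46) and Mrpl39 (3.50) were among the 8 largest with Mrpl33, Mrpl15 and Mrpl22. Without Ctrl replicate 6 of the 8-cell stage Mrpl42 gave 2.08 and Mrpl23 2.74. Mrpl42 gave 4.32 without Ctrl replicate 6 of the 2-cell stage, and Mrpl52 gave 4.38 without Ctrl replicate 3 of that stage.

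Mrpl33 had the largest rise of any member in Ctrl, and that value leaned on 1 library. The protein is a small component of the large subunit. In Ctrl embryos it ran from 1.74 to 12.8 CPM at the 2-cell stage and from 38.6 to 1116 CPM at the 8-cell stage with a median of 103.6. The value of 1116 CPM was that of replicate 6, and the next highest was 192.4. The log2 fold change was 5.36 ± 0.83 (edgeR adjusted p = 9.31e-07), and 3.92 without that library (adjusted p = 1.28e-05). In NI embryos Mrpl33 gave 2.04 ± 0.88 and missed the threshold (edgeR adjusted p = 0.0521).

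**Figure D3:**
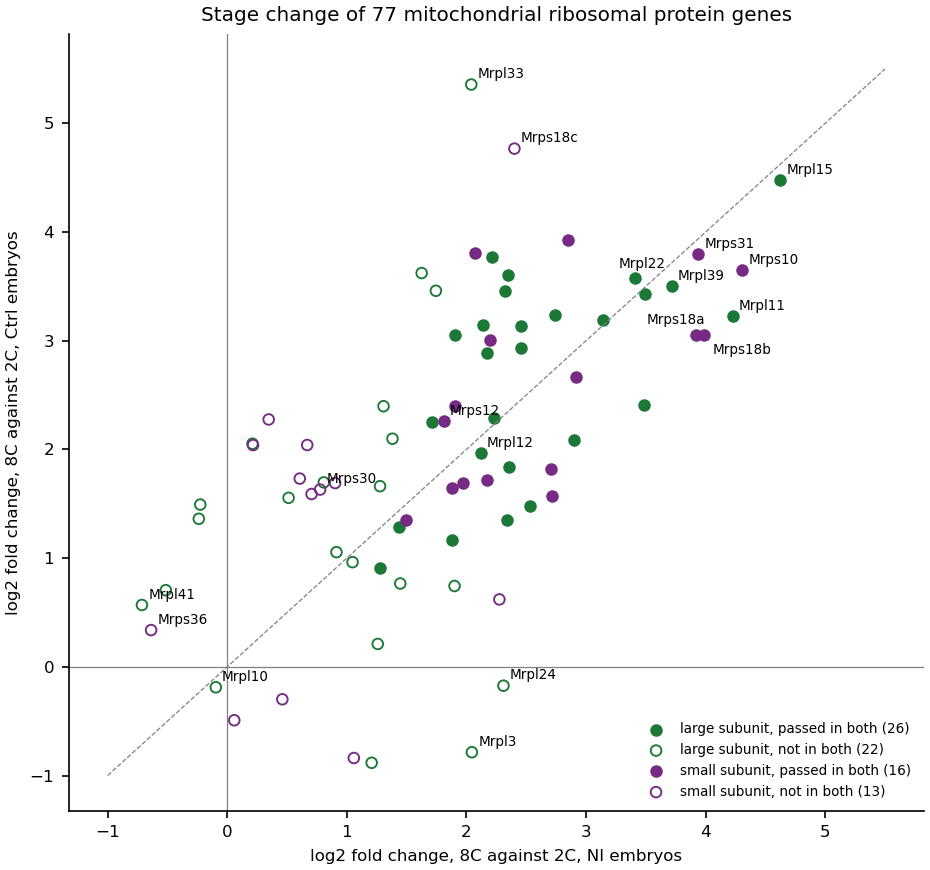
Log2 fold change from the 2-cell to the 8-cell stage of the 77 genes in NI (horizontal) and Ctrl embryos (vertical). Filled points passed the test in both comparisons (26 large-subunit and 16 small-subunit genes), and the dashed line marks equal values. Mrpl15 was high in both, Mrpl33 and Mrps18c were higher in Ctrl, and Mrpl3 and Mrpl24 were positive in NI and below 0 in Ctrl.

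Among the small-subunit genes 17 of 29 rose in NI and 24 of 29 in Ctrl, with median log2 fold changes of 1.90 and 1.82. Mrps10, in the head of the small subunit, was at 4.923, 7.196, 3.595 and 11.4 CPM in the NI libraries of 2-cell embryos. In 8-cell embryos its level ran from 86.6 to 239.7 CPM, with no overlap. The log2 fold changes were 4.31 ± 0.77 in NI and 3.65 ± 0.58 in Ctrl (edgeR adjusted p = 1.88e-05 and 1.79e-06). Mrps31, which is particular to the mitochondrial ribosome, was at 6.77, 4.32, 14.4 and 2.48 CPM and then at 78.6 to 126.2 CPM in NI, and rose by 3.94 ± 0.75 in NI and 3.79 ± 0.58 in Ctrl on the log2 scale. In NI the value was 4.55 without replicate 3 of the 2-cell stage. In Ctrl it was 4.72 without Ctrl replicate 3 of that stage, whose 22.9 CPM stood above the 1.34 to 4.28 CPM of the other 6.

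Mrps12, whose protein sits at the decoding centre, passed in NI, but not without certain libraries. Its level was 36.9, 5.52, 23.0 and 11.7 CPM at the 2-cell stage and 28.4 to 142.6 CPM at the 8-cell stage, and the groups overlapped. The log2 fold change was 1.81 ± 0.70 in NI (edgeR adjusted p = 0.0306) and lost the threshold without any one of 4 libraries (NI replicates 2 and 4 of the 2-cell stage, 5 and 6 of the 8-cell stage; adjusted p = 0.13, 0.106, 0.0554 and 0.0647). In Ctrl it was 2.26 ± 0.59 (edgeR adjusted p = 0.00107). Mrps22 (2.91) and Mrps34 (2.85) complete the 6 largest rises of the small subunit in NI, with Mrps18a and Mrps18b. In Ctrl the 6 were Mrps18c (4.77), Mrps34 (3.93), Mrps24 (3.81), Mrps31, Mrps10 and Mrps18a (3.06).

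The 3 genes of the Mrps18 family differ in place and were compared one by one. Mrps18b and Mrps18c belong to the small subunit, whereas the protein of Mrps18a has been located in the large subunit. Mrps18b was at 25.2, 65.97, 21.57 and 67 CPM in NI at the 2-cell stage and at 467.6 to 1270 CPM at the 8-cell stage, a log2 fold change of 3.99 ± 0.57 (edgeR adjusted p = 5.71e-07). Mrps18a was at 11.1, 4.32, 20.9 and 2.64 CPM and then at 78.7 to 265.4 CPM, a log2 fold change of 3.92 ± 0.71 (edgeR adjusted p = 2.31e-05) that was 4.62 without NI replicate 3 of the 2-cell stage. Mrps18c was at 83.7, 14.2, 8.63 and 14.03 CPM and then at 65.1 to 358.8 CPM, a log2 fold change of 2.40 ± 1.08 that missed the threshold (edgeR adjusted p = 0.0603). NI replicate 1 alone put the 2 stages of Mrps18c into overlap. In Ctrl Mrps18a and Mrps18b gave 3.06 ± 0.53 and 3.05 ± 0.43. Mrps18c gave 4.77 ± 0.96 there, with 2426 CPM in replicate 6 of the 8-cell stage and 61.02 to 186 CPM in the other 5, and 2.67 without that library (edgeR adjusted p = 0.00381). Without Ctrl replicate 6 of the 2-cell stage it gave 5.63. VP64 replicate 7 stood apart in the same way, with 1025 CPM against 65.8 to 157.8 CPM in the other 6.

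**Figure D4:**
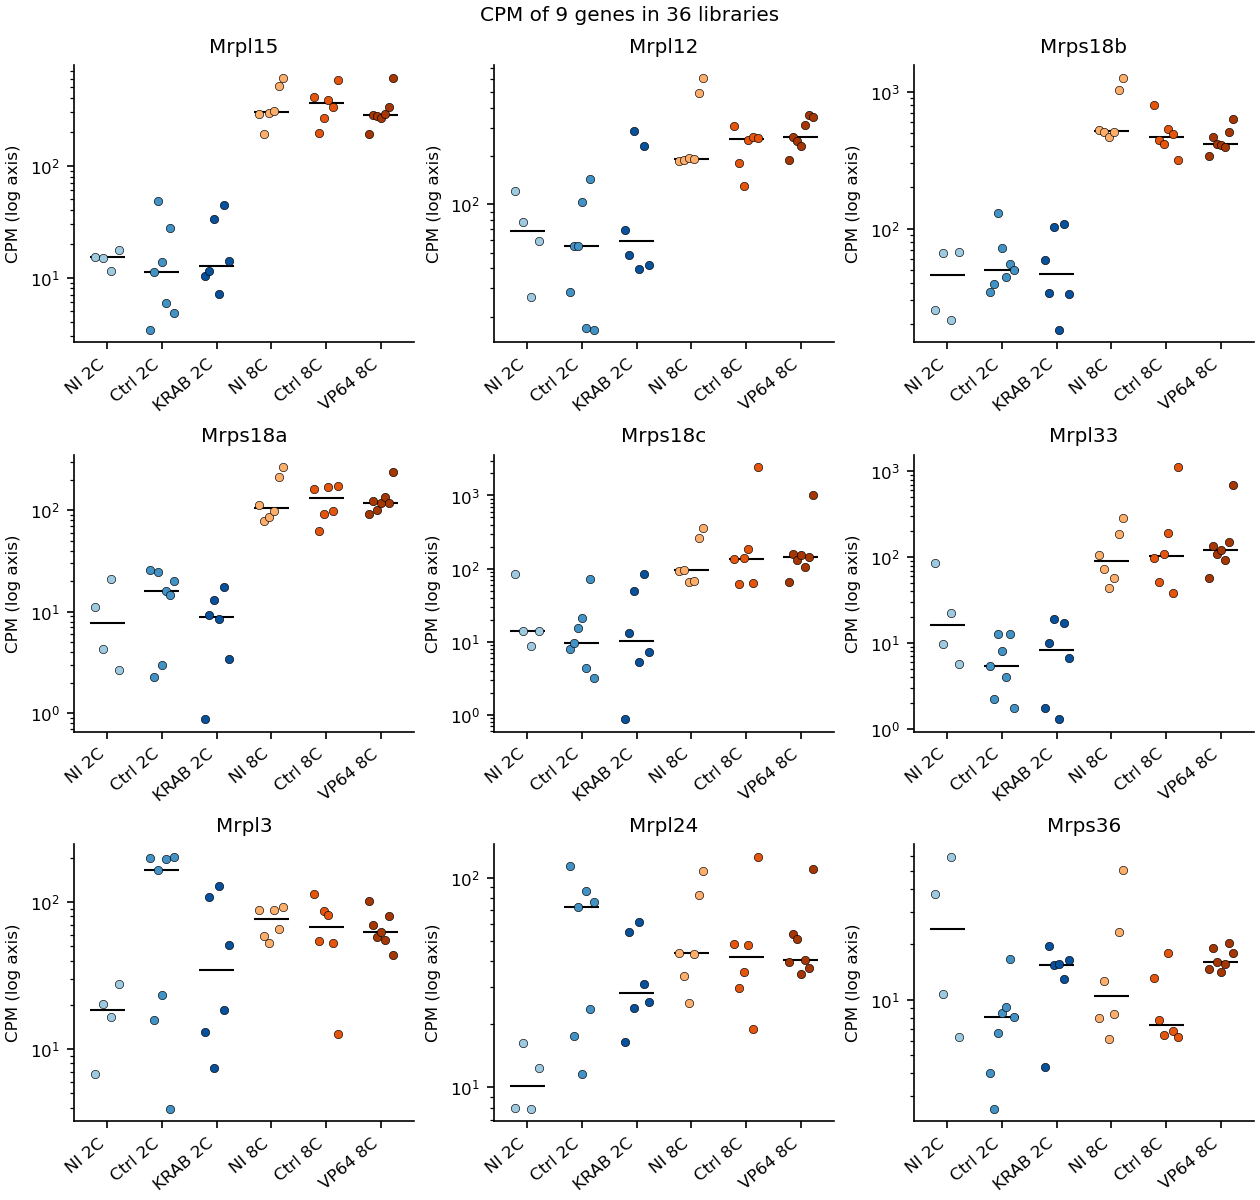
CPM of 9 genes in each library on a log axis, with the median of each group as a line. Mrpl15, Mrps18a and Mrps18b did not overlap between stages in NI or Ctrl, Mrps18c and Mrpl33 were far higher in 1 Ctrl and 1 VP64 library of the 8-cell stage, Mrpl3 and Mrpl24 were spread widely among Ctrl libraries of the 2-cell stage, and Mrps36 overlapped throughout.

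Genes named as small-subunit members whose proteins lie elsewhere gave mixed values. Mrps30, which encodes a protein of the large subunit, gave 0.78 ± 0.82 in NI and 1.63 ± 0.70 in Ctrl (edgeR adjusted p = 0.444 and 0.042). The call in Ctrl was lost without any one of 7 libraries, replicates 1, 3, 5, 6 and 7 of the 2-cell stage and 1 and 3 of the 8-cell stage (edgeR adjusted p from 0.0646 to 0.129). Its libraries were scattered, from 9.35 to 113.2 CPM in NI at the 2-cell stage and from 21.7 to 194.9 CPM at the 8-cell stage. Mrps36, known as a part of the 2-oxoglutarate dehydrogenase complex, was at 37.5, 10.8, 59.7 and 6.27 CPM in NI at the 2-cell stage and ran from 6.15 to 50.7 CPM at the 8-cell stage. It gave -0.64 ± 0.57 in NI and 0.34 ± 0.50 in Ctrl and passed in neither (edgeR adjusted p = 0.359 and 0.576). With Mrps30 and Mrps18a placed in the large subunit and Mrps36 left out, 32 of 50 large-subunit and 16 of 26 small-subunit genes rose in NI, and 40 of 50 and 22 of 26 in Ctrl.

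Members listed as having a bacterial counterpart and the other members were counted apart. The list took Mrps18c alone of the Mrps18 genes and held Mrpl55. Mrps18a, Mrps18b and Mrps36 were thus counted among the others. Mrps18a and Mrps18b are relatives of bacterial S18 and were called in both stage comparisons. The classes therefore do not cleanly part proteins of bacterial descent from those added later. In NI 35 of 46 members listed with a bacterial counterpart rose and 13 of the 31 others, with median log2 fold changes of 2.06 and 1.28. Within the large subunit the counts were 25 of 30 and 6 of 18, and within the small subunit 10 of 16 and 7 of 13. In Ctrl the counts were 38 of 46 and 24 of 31, with medians of 2.26 and 1.66. Within the large subunit of Ctrl the order of the shares was the other way round, with 23 of 30 and 15 of 18. The classes were counted without a test, and the order seen in NI was not seen throughout.

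The balance of large against small subunit was measured within each library as the log2 ratio of the summed counts, which needs no scaling. In NI the ratio was 1.63, 0.98, 0.82 and 0.96 at the 2-cell stage and ran from 0.87 to 1.14 at the 8-cell stage. The means were 1.10 ± 0.37 (SD, n = 4) and 1.005 ± 0.117 (n = 6). In Ctrl the means were 1.15 ± 0.21 (n = 7) and 1.003 ± 0.0996 (n = 6), in KRAB 1.17 ± 0.39 (n = 6) and in VP64 1.04 ± 0.13 (n = 7). All 6 groups overlapped, and the differences between group means, at most 0.14 between the stages, were smaller than the SD of the 2-cell groups. The high ratios of the 2-cell stage belonged to NI replicate 1 (1.63), Ctrl replicate 6 (1.58) and KRAB replicates 1, 3 and 5 (1.72, 1.44 and 1.36). NI replicate 1, Ctrl replicate 6 and KRAB replicates 3 and 5 also had the highest shares of their groups. In these 4 libraries Mrpl41, of the large subunit, was at 181.5, 182.5, 199.9 and 248.6 CPM, whereas it ran from 5.56 to 94.9 CPM in the other 13 libraries of the 2-cell stage. Cytosolic ribosomal proteins, counted beside them, also held the highest share of their group's counts in these libraries, 5.21% in NI replicate 1, 2.19% in Ctrl replicate 6, and 3.18% and 3.801% in KRAB replicates 3 and 5. KRAB replicate 1, with the highest ratio of all, went the other way. It had the lowest member share of its group, 0.229%, and a cytosolic share of 1.67%. In that library 20 members had fewer than 10 counts. Whether a common source lies behind the values of the other 4 libraries was not tested.

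The stage change was also tested for a difference between Ctrl and NI embryos. At an adjusted p under 0.05, 0 of 13158 genes and 0 of 77 members passed (edgeR's quasi-likelihood test of the interaction), and 9 members had an unadjusted p under 0.05, where 20.4% of all genes did. DESeq2 called 3 members and 5.01% of all genes, and limma-voom with quality weights 16 members and 27.3% of all genes, so the members' shares were below those of all genes with both. The smallest p-values of the large subunit were those of Mrpl24, at -2.48 ± 0.76 on the log2 scale (edgeR adjusted p = 0.0943), Mrpl33 at 3.32 ± 1.09 (0.106) and Mrpl3 at -2.83 ± 0.97 (0.114). In the small subunit they were those of Mrps2 at -1.90 ± 0.74 (0.143) and Mrps27 at -1.66 ± 0.69 (0.165). Without Ctrl replicate 6 of the 2-cell stage 6 members passed, Mrpl24, Mrpl33, Mrpl3 and Mrps2 among them, as did 8.36% of all genes.

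Mrpl3 and Mrpl24, both core proteins of the large subunit, were spread widely among the Ctrl libraries of the 2-cell stage. Mrpl3 was at 200, 15.6, 164.3, 23.5, 196, 3.93 and 203.2 CPM in Ctrl replicates 1 to 7. Mrpl24 was at 113.2, 17.6, 72.3, 11.5, 85.95, 23.6 and 76.5 CPM in the same order. For both genes replicates 1, 3, 5 and 7 were high and replicates 2, 4 and 6 low. In the 4 NI libraries Mrpl3 was at 6.77 to 27.7 CPM and Mrpl24 at 7.91 to 16.3 CPM, near the low Ctrl libraries. In KRAB embryos Mrpl3 reached 109.1 and 128.6 CPM in replicates 2 and 4 and Mrpl24 55.1 and 61.7 CPM in the same libraries. Mrpl48 was also high in Ctrl replicates 1, 3, 5 and 7, at 183.4, 117.8, 173.1 and 135.6 CPM, against 13.6, 9.82 and 72.6 CPM in replicates 2, 4 and 6. In the small subunit Mrps27 was at 37.65 to 45.12 CPM in replicates 1, 3, 5 and 7 and at 6.69 to 8.113 CPM in the other 3, and Mrps9 at 21.39 to 24.2 and at 3.416 to 5.455 CPM. The summed 2-cell markers were at 2083, 1189, 1556 and 1159 CPM in replicates 1, 3, 5 and 7 and at 893.5, 885.6 and 931.2 CPM in the other 3, and their part in these values was not tested. In Mrpl24 40.3% of the 31-base stretches also occur in Rrnad1, with which it shares 594 bases of exon on opposite strands.

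Within the 2-cell stage the treatments were compared in a fit of its 17 libraries. Between KRAB and Ctrl embryos 0 of 77 members passed, and 0% of the 11799 genes tested did (edgeR's quasi-likelihood test). An unadjusted p under 0.05 was reached by 5 members and by 15.6% of all genes. DESeq2 called 1 member and 1.93% of all genes. Limma-voom with quality weights called 25 members, of which 22 were higher in KRAB, and 44.4% of all genes, 21.7% being higher. The median log2 difference of the members was 0.46, with 55 of 77 above 0, against -0.13 for all genes. Mrps26 had the smallest p, with 57.5 to 151.6 CPM in KRAB and 12.9 to 80.7 CPM in Ctrl, a log2 difference of 1.64 ± 0.47 (adjusted p = 0.222 in edgeR). In NI Mrps26 was at 64.2 to 116.9 CPM, so the Ctrl libraries were the low ones. Mrps6 gave 1.72 ± 0.55 (edgeR adjusted p = 0.23). The large-subunit genes with the smallest p in this comparison were Mrpl32 at 0.86 and Mrpl41 at 1.37 (edgeR adjusted p = 0.334 and 0.386).

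Between Ctrl and NI embryos of the 2-cell stage 0 members and 0% of genes passed in edgeR, and 11 members had an unadjusted p under 0.05, against 23.4% of all genes. DESeq2 called 7 members and 9.04% of all genes, and limma-voom 22 members and 50.5% of all genes. The members' median log2 difference was -0.35, with 51 below 0, and all genes had a median of 0.07. The smallest p-values were those of Mrpl24 at 2.12 ± 0.59 (adjusted p = 0.121 in edgeR), Mrps36 at -2.17 ± 0.61 (0.121), Mrps26 at -1.61 ± 0.51 (0.125), Mrpl33 at -2.54 ± 0.80 (0.125) and Mrpl52 at -3.16 ± 1.02 (0.13). Without Ctrl replicate 6, 10 members and 11.6% of all genes passed and the members' median was -0.93, and Mrpl24, Mrpl33 and Mrps36 were among the 10. Between KRAB and NI embryos 0 members and 0% of genes passed, and 2 members had an unadjusted p under 0.05, against 3.12% of all genes. They were Mrpl24 at 1.63 ± 0.59 and Mrpl33 at -1.83 ± 0.82 (edgeR adjusted p = 0.998 for both). These 3 comparisons share libraries in pairs and are not independent of each other. The 95% intervals of the members had median half-widths of 1.28 (KRAB and Ctrl), 1.43 (Ctrl and NI) and 1.48 (KRAB and NI) on the log2 scale. For most members a 2-fold difference was therefore not detectable at this stage.

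Within the 8-cell stage the fit took its 19 libraries, and the median half-width of the members' intervals was 0.89 between VP64 and Ctrl. Between VP64 and Ctrl embryos 0 of 77 members and 0% of 9850 genes passed (edgeR's quasi-likelihood test). An unadjusted p under 0.05 was reached by 0 members, against 3.99% of all genes. DESeq2 and limma-voom called 0 members as well, and 1 and 0 of all 9850 genes. The median log2 difference was -0.04 and the values ran from -1.02 for Mrps18c to 0.78 for Mrps36. For 28 members the 95% interval lay within 1 log2 unit of 0 and for 74 within 2 units. Mrpl12 differed by 0.25, with an interval from -0.46 to 0.97, and Mrps18b by -0.15, with an interval from -0.82 to 0.51. The interval of Mrps18c, from -2.69 to 0.66, was among the wider ones.

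Between Ctrl and NI embryos of the 8-cell stage 0 members and 0% of genes passed, and Mrpl9 (1.19 ± 0.51) and Mrps5 (-0.84 ± 0.37) had an unadjusted p under 0.05 (edgeR adjusted p = 1 for both), against 4.36% of all genes. Between VP64 and NI embryos 0 members and 0% of genes passed, and Mrps18b alone had an unadjusted p under 0.05, at -0.67 ± 0.32 (edgeR adjusted p = 0.696), against 7.17% of all genes. The 3 comparisons at this stage share libraries too. Medians were -0.04 in both, and the intervals of 14 and 26 members lay within 1 log2 unit of 0. For both comparisons DESeq2 and limma-voom also called 0 members. In none of the 6 comparisons of treatments within a stage did a member pass in edgeR.

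**Figure D5:**
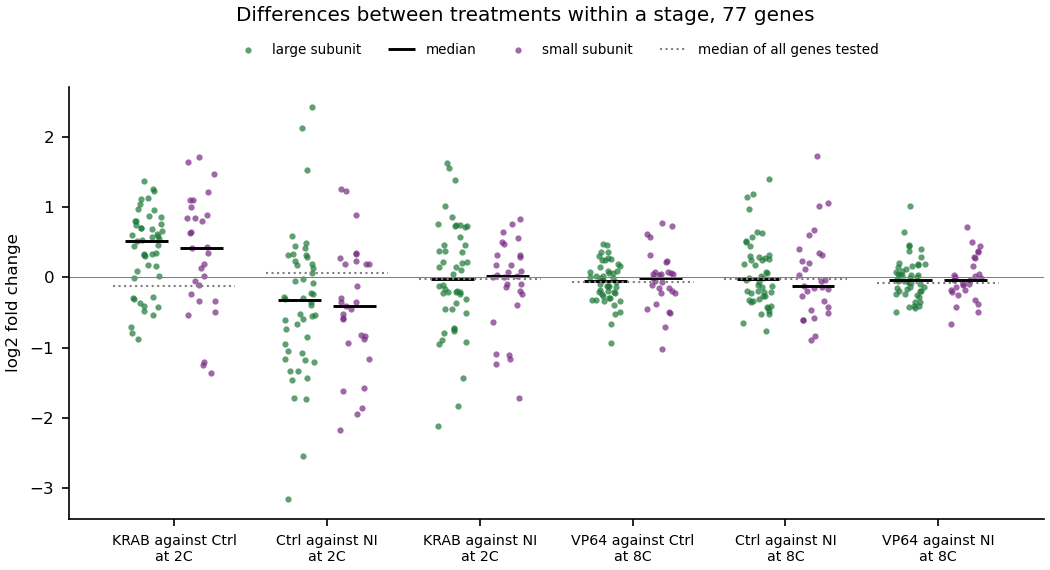
Log2 fold changes of the 77 genes in the 6 comparisons of treatments within a stage, with large-subunit and small-subunit genes side by side. Black lines are medians of each subunit, and dotted lines are medians of all genes tested. In Ctrl against NI values ran from -3.16 to 2.43 at the 2-cell stage and from -0.89 to 1.73 at the 8-cell stage. They ran from -1.37 to 1.72 in KRAB against Ctrl and from -1.02 to 0.78 in VP64 against Ctrl.

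Other genes of mitochondrial translation were counted from lists of their own, to be read against the 18.5% of all genes that rose and 31.4% that fell in NI, and 22.5% and 39% in Ctrl. Of 6 ribosomal proteins of the mitochondrion that carry another name, 4 rose and 0 fell in NI embryos, and in Ctrl embryos 4 rose and 1 fell. Chchd1 rose by 2.78 ± 0.74 and 4.66 ± 0.64 on the log2 scale and Ict1, a member of the large subunit that releases stalled chains, by 3.22 ± 0.72 and 4.04 ± 0.59 (all edgeR adjusted p-values at most 0.00216). Dap3, of the small subunit, went up by 1.53 ± 0.56 in NI and down in Ctrl, where it gave -1.197 ± 0.466 (edgeR adjusted p = 0.0219 and 0.0247). In the test of the stage change between Ctrl and NI, however, 0 of these 6 genes passed (smallest edgeR adjusted p = 0.0849). Of 15 mitochondrial translation factors the NI comparison had 3 rising and 1 falling, and the Ctrl comparison 5 and 3. Tufm, the elongation factor that brings aminoacyl-tRNA to the ribosome, rose by 3.94 ± 0.68 and 3.33 ± 0.52. The share of translation factors that rose in NI, 20% of 15, was near that of all genes.

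Of 28 factors that assemble the mitochondrial ribosome or modify its RNA, 9 rose in NI with 1 falling, and in Ctrl the counts were 9 and 4. The GTPase Mtg1 (4.21 ± 0.63 and 2.89 ± 0.46), the small-subunit factor Rbfa (4.08 ± 0.64 and 2.63 ± 0.47) and the RNA methyltransferase gene Ftsj2 (4.44 ± 0.82 and 3.86 ± 0.63) rose in both. Nsun4, a methyltransferase of ribosomal RNA that also acts in assembly, fell in both, with log2 values of -2.77 ± 0.55 and -5.40 ± 0.58 (edgeR adjusted p = 8.6e-05 and 1.13e-09). Of 20 genes for charging mitochondrial tRNAs 5 rose in NI and 9 in Ctrl, with 2 falling in each. Fars2, the phenylalanyl-tRNA synthetase, fell most, with log2 values of -4.59 ± 0.69 and -4.71 ± 0.67. Of 13 genes that copy or transcribe the mitochondrial genome 2 rose in NI and 5 in Ctrl, with 0 falling in either. Tfam, which packages mitochondrial DNA, gave 1.01 ± 0.50 in NI (edgeR adjusted p = 0.088) and 2.10 ± 0.43 in Ctrl (6.78e-05). Of 8 nuclear regulators 1 rose in NI and 3 in Ctrl, with 1 falling in each. Myc rose by 3.86 ± 0.92 and 2.74 ± 0.69 and Ppargc1b fell, with -2.85 ± 1.05 and -3.65 ± 1.02, and Esrra, a nuclear receptor that acts on such genes, rose by 3.26 ± 0.67 in Ctrl.

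The 77 cytosolic ribosomal protein genes serve as the nearest comparison. In NI 49 of them rose and 0 fell with a median log2 fold change of 2.09, beside 48 and 0 and 1.90 for the mitochondrial set. In Ctrl all 77 rose with a median of 3.49, beside 62 and 2.04. Their lowest log2 fold change in Ctrl was 2.05, whereas the mitochondrial members ran from -0.88 to 5.36. The difference between the 2 sets was not tested.

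Within a stage, members differed in which others they followed across libraries. Over the 17 libraries of the 2-cell stage Mrpl12 was most like Mrpl20, Mrps11 and Mrpl22, with Spearman coefficients of log2(CPM + 1) of 0.961, 0.917 and 0.902. Mrps12 was most like Mrps18c (0.748), Mrpl36 (0.721) and Mrpl47 (0.713). Over the 19 libraries of the 8-cell stage Mrpl12 was most like Mrps18a (0.818), Mrpl52 (0.804) and Mrpl48 (0.779), and Mrps12 most like Mrpl28, Mrpl55 and Mrps17 (0.935, 0.935 and 0.926). The 3 closest genes were different at each stage for both. Libraries share depth and scaling across genes, so these coefficients describe the libraries at hand.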

How the data were processed

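The authors deposited 1 table of estimated counts per gene for 36 libraries, with mm10, RSEM and Bowtie2 named per the submitters' processing notes and no version given. Of the estimated counts 19.5% were not whole, since RSEM divides reads that fit several genes, and all were rounded. Groups came from the treatment and stage labels, and replicate numbers follow the order of deposition and pair nothing. Genes were filtered (edgeR's filterByExpr, minimum count 10, minimum total 15), scaled by TMM and tested with edgeR 4.0.16 (R 4.3.3; robust quasi-likelihood fit, Benjamini-Hochberg adjustment over all genes tested, threshold 0.05). One fit of all 36 libraries (13158 genes) gave the stage comparisons and the interaction, and 1 fit per stage (11799 and 9850 genes) gave the rest. The SE of a log2 fold change is its size over the square root of F. CPM use TMM-scaled totals of the 36-library fit. Alternatives were DESeq2 1.42.0, limma-voom (limma 3.58.1), upper-quartile scaling, a light filter, library totals, only the groups compared, and leaving out libraries. Scripts were tested on simulated data. No 2 libraries of a group differed by less than sampling noise (lowest chi-square per degree of freedom 6.92 in 93 pairs). RefSeq promoters and GENCODE vM21 gave sequences and transcript lengths. The members and lists were chosen with earlier results of these data known. Genes were named by rule: the 8 Mrpl and 6 Mrps genes with the largest rise in a stage comparison and at least 10 CPM in a group, members with the smallest p elsewhere, the extremes of level in NI, a few fixed names, and up to 3 genes of each other list. Mrpl48, Mrps27 and Mrps9 beside Mrpl3 and Mrpl24, and Mrpl41 in the ratio, were chosen after their values were seen.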

Additional observations from a re-analysis of the deposited data

Results flagged for a closer look

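Dixon's rule marked 29 of 114 groups of values, each because 1 library lay far from the others of its group. Its limits mark about 1 in 20 among independent, normally distributed values. Most values here are unlogged CPM of genes that share libraries and scaling, so that rate does not apply to them. VP64 replicate 7 of the 8-cell stage was marked 12 times. The members held 1.47% of its counts, and it was highest for Mrpl15 (601.4 CPM), Mrpl39 (216.8), Mrpl11 (95.3), Mrpl22 (1720), Mrpl33 (688.9), Mrpl24 (110.2), Mrpl41 (136.6), Mrps10 (334), Mrps12 (175.2), Mrps18a (239.6) and Mrps18c (1025). Ctrl replicate 6 of the 8-cell stage was marked 8 times, being highest for Mrpl10 (232 CPM), Mrpl11 (114.3), Mrpl22 (1944), Mrpl24 (125.7), Mrpl33 (1116), Mrpl41 (163.5), Mrps10 (412.6) and Mrps18c (2426). These 2 libraries had the lowest scaling factors, 0.503 and 0.624, and Ctrl replicate 6 had 9672 detected genes and VP64 replicate 7 had 11343, the lowest and the third lowest number of the 8-cell stage. The part of scaling in their values was not tested. At the 2-cell stage Ctrl replicate 6 stood apart in the members' share (0.637%) and for Mrpl22 (241.4 CPM), Mrpl41 (182.5), Mrps12 (35.3) and Mrps18c (72.6). Ctrl replicate 3 stood apart for Mrpl39 (20.1 CPM), Mrps18b (129.2) and Mrps31 (22.9), and NI replicate 1 for Mrps18c (83.7).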

How the results depend on the processing

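No paired analysis was possible because the replicate numbers follow the order of deposition and pair no samples. Stage calls numbered 42 to 58 members in NI and 53 to 68 in Ctrl over 8 settings, fewest on library totals and most with limma-voom, and 40 to 52 and 54 to 66 without single libraries. Of all 13158 genes 1819 rose in NI and 2172 in Ctrl on library totals, and 2868 and 3986 with limma-voom. Without single libraries 1974 to 2519 and 2488 to 3158 rose, of 13005 to 13527 genes tested. Of the 48 and 62 members called, 36 and 48 passed in all of these settings and exclusions. Medians were 1.60 to 2.05 for NI and 1.504 to 2.35 for Ctrl over 7 settings, and 1.66 to 2.31 and 1.78 to 2.37 without single libraries. The median of all genes moved with the scaling, to -0.72 and -0.70 with DESeq2 and -0.75 and -0.84 on library totals. With only the NI libraries fitted it was 0.09 and 2494 genes rose and 2597 fell. Calls within the 2-cell stage depended on the tool: for KRAB against Ctrl 1 with DESeq2 and 25 with limma-voom (1.93% and 44.4% of all genes); for Ctrl against NI 7 and 22, and 13 without the least typical libraries (9.04%, 50.5% and 9.59%), with a median of -1.09; for the interaction 3, 16 and 8 (5.01%, 27.3% and 7.76%), with a median of 0.75. Without single libraries Ctrl against NI gave 0 to 10 calls and medians from -0.93 (without Ctrl replicate 6) to 0.03154 (without NI replicate 1), and the interaction 0 to 6 calls and medians from -0.0892 to 0.71 without the same 2 libraries. At the 8-cell stage, and for KRAB against NI, 0 members were called in all settings. Of all genes at most 12 were called higher and 6 lower there, in VP64 against NI with DESeq2. The large-to-small change in Ctrl was 0.13 from mean log2 values and -0.14 from sums, both within the SD. Up to 20 members had fewer than 10 counts in a 2-cell library, which limits what low genes can show there. The cause of these shifts was not tested.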
